A study of Mus musculus with 6 samples.

Results

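Isolated dynamic regions were those intervals of a deposited list of dynamic transcription factor peaks that had no other listed interval nearby. A region counted as isolated when the nearest other centre on its chromosome was more than 500000 bp away, and chromosome X was not used. The rule chose 498 of the 4557 autosomal regions, which was 10.9% (exact binomial 95% interval 10% to 11.9%), out of 4669 regions in the whole list. The remaining 4059 autosomal regions, whose nearest centre was 500000 bp away or less, served as the comparison. The members were thus chosen by the distances between centres, which are given below as descriptions, with no test. Width was not part of the rule.

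The list came from ChIP-seq, in which DNA bound by a protein is pulled down with an antibody and sequenced. The cells were mouse bone marrow progenitors with the surface phenotype Lin-Sca-1+c-Kit+, transformed in culture by the MLL-AF9 fusion and grown with the cytokines interleukin-3 and interleukin-6, each at 10 ng/mL, plus stem cell factor at 20 ng/mL. The 6 libraries formed 6 groups of 1 library each, all of this MLL-AF9 genotype: C/EBPα untreated, C/EBPα with an LSD1 inhibitor, PU.1 untreated, PU.1 with an LSD1 inhibitor, LSD1 untreated, and an untreated input without antibody. The labels' protocols name GSK-LSD1, an irreversible inhibitor, and do not give its dose or duration for these libraries. The deposited list has 3 columns, chromosome, start and end on mm9, and does not separate regions of PU.1 from those of C/EBPα, treated from untreated cells, or gained from lost binding. No comparison between libraries could be made from it, and the depth behind each region is unknown.

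PU.1 (encoded by Spi1) is an ETS-family transcription factor that opens enhancers in myeloid cells and B cells. C/EBPα is a basic leucine zipper factor needed for granulocyte and monocyte differentiation, and it often binds the same enhancers as PU.1. LSD1 (Kdm1a) removes methyl groups from lysine 4 of histone H3 and is recruited to chromatin by repressors such as GFI1. Enhancers can act over long distances, and many genes of haematopoietic cells are controlled by several enhancers that lie close together. A listed region far from any other is a place where the list holds no such neighbour. No statement about peaks outside the list follows from it.

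Most isolated regions had another region within 1 Mb, and a smaller number stood megabases away from anything else in the list. The nearest centre was 500 to 750 kb away for 238 of them (47.8%), 750 kb to 1 Mb away for 110 (22.1%), 1 to 2 Mb away for 122 (24.5%) and over 2 Mb away for 28 (5.62%). The median distance was 776.2 kb, with the central part of the set between 592.0 kb (25th percentile) and 1089.4 kb (75th percentile). Among the other autosomal regions the median was 86.2 kb. The histogram of nearest distances runs through the limit without a break, so the isolated regions are the upper end of a continuous distribution. At the limit, the closest members had nearest distances of 500.2 kb (chr7:28850113-28850809) and 501.9 kb (chr13:32953365-32954266 and chr13:33455250-33456241, which are each other's nearest). The closest regions left out had 499.5 kb (chr11:95126773-95127744), 498.7 kb (chr6:128331216-128332041) and 498.0 kb (chr5:31980353-31980838).

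**Figure D1:**
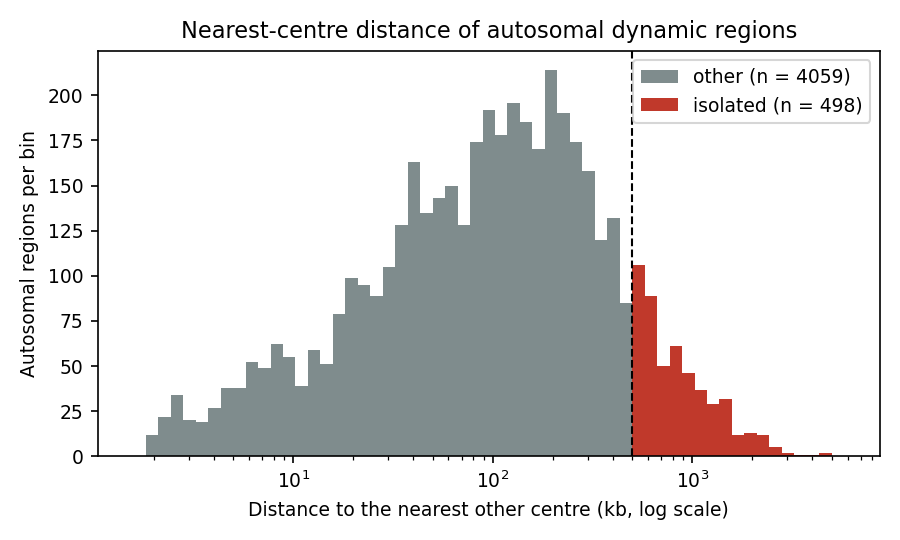
Distance from each autosomal region to the nearest other centre (x axis, kb, log scale) and the number of regions per bin (y axis), with the limit of 500 kb as a dashed line. The 498 isolated regions (red) continue the upper slope of the 4059 others (grey), with no gap between them.

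The most isolated autosomal region of the list was chr12:65976476-65977475, 1000 bp wide, with 5.41 Mb to its left neighbour and 4995.9 kb to its right neighbour. Next came chr16:70394161-70395189 (1029 bp, nearest centre 4.49 Mb away) and chr15:20477462-20478455 (994 bp, 4.22 Mb). The region chr18:88992802-88993777 (976 bp, 3.75 Mb) was the last on its chromosome, so its distance was measured on 1 side alone. Chromosome 10 held a pair, chr10:50088728-50089842 (1115 bp, 3.05 Mb) and chr10:105428181-105428762 (582 bp, 2.92 Mb). The other 4 of the 10 most isolated were chr7:13876267-13877349 (1083 bp, 2797.4 kb), chr8:101519499-101520578 (1080 bp, 2591.2 kb), chr11:40215535-40216678 (1144 bp, 2565.3 kb) and chr1:189052303-189053323 (1021 bp, 2563.2 kb). As a set these 10 regions were not narrow. Their median width was 1025 bp, above the medians of the isolated set (931 bp) and of the other autosomal regions (965 bp). This held only in part for the larger set of 150 members with a nearest centre over 1 Mb away. Its median was 936 bp (889 to 974), near that of the isolated set and below that of the others. Of this larger set, 17.3% measured under 700 bp. Of the 10, 9 were wider than the isolated median, and the same number measured between 976 and 1144 bp. None, 0 of the 10, reached 1300 bp. The genes around them were not analysed here.

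The distances on the left and right of a member often differed. Of the 484 members with a neighbour on each side, the farther neighbour was a median of 1553.6 kb away (25th to 75th percentile 1063.4 to 2480.7 kb), and the ratio of the farther to the nearer distance had a median of 1.75. In 193 of them (39.9%) the farther neighbour was more than 2 times as distant as the nearer. The nearer neighbour was on the left for 236 and on the right for 248. Both distances exceeded 1 Mb in 143 of the 498 members (28.7%). The longest single distance beside a member was 14.2 Mb, to the right of chr14:107086378-107087366, whose left neighbour lay 652.3 kb away (chosen after its value was seen). First and last regions of a chromosome have 1 neighbour and can meet the rule more easily. Of the 38 such regions 14 (36.8%) were isolated, and they made up 2.81% of the members.

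**Figure D2:**
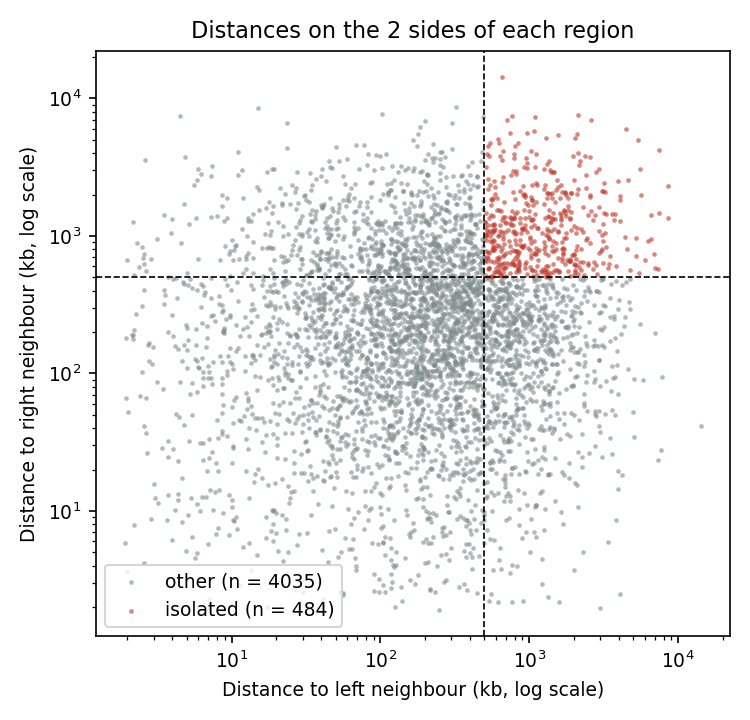
Distance to the left neighbour (x axis) and to the right neighbour (y axis) of each autosomal region with a neighbour on each side, both in kb on log scales, with dashed lines at 500 kb. Isolated regions (red) fill the upper right corner by the rule, and many of them, like the 39.9% with a ratio above 2, lie away from the diagonal.

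Long stretches between regions were common on the autosomes, and the isolated regions sat inside them. Of 4538 distances between neighbouring centres, 1333 (29.4%) exceeded 500 kb, and these held 1853.0 Mb of the 2383.6 Mb between first and last centres (77.7%). An isolated region stood at both ends of 186 of these stretches (14%), at 1 end of 610 (45.8%) and at neither end of 537 (40.3%). The median length was 1089.0 kb with isolated regions at both ends, 1051.4 kb with 1 and 901.4 kb with none. Stretches with a less isolated region on at least 1 side outnumbered those with isolated regions on both. Isolated regions were 10.9% of the autosomal regions, and the distances of the rule build part of these counts in.

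Many isolated regions adjoined one another. Of the 498 members, 303 (60.8%) had another member as the adjoining region on at least 1 side. The other 195 had no member beside them, and some of these were the first or last of their chromosome. The distances of the rule build part of this in, since the region beside a member already has 1 distance over 500 kb and needs only a second, and 29.4% of all distances are that long. The members formed 312 runs, of which 73 held 2 members, 28 held 3 and 16 held 4 or more. The longest run had 7 members on chromosome 14, from 7179097 to 17231242 (10.1 Mb), starting with the first listed region of that chromosome. Its members were chr14:7179097-7179914, chr14:8827839-8828519, chr14:10916131-10917012, chr14:12949669-12950359, chr14:13513224-13514245, chr14:15342254-15343263 and chr14:17230639-17231242. They measured between 604 and 1022 bp and stood 563.7 to 2088.4 kb apart. A run of 6 spanned chr12:56924579-65977475 (9.05 Mb) and ended with the most isolated autosomal region of the list. Another run of 6 spanned chr5:36035961-41312979 (5.28 Mb). The 2 runs of 5 spanned chr7:138008925-141957650 and chr14:104111983-107087366, the latter ending where the stretch of 14.2 Mb began. Members of 1 run share their stretch of chromosome and are not independent of each other.

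The nearest neighbour of an isolated region was seldom part of a tight group. It was another member in 186 cases (37.3%) and a less isolated region in 312. Of those 312 neighbours, counted once per member, 17 (5.45%) had another centre within 12.5 kb, and 484 of all 4059 other regions (11.9%) did. Part of this gap is built in, since such a neighbour has the member's empty stretch on 1 side.

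Not every isolated region stood in sparse surroundings. Within 2.5 Mb on either side, isolated regions had a median of 6 other listed regions (25th to 75th percentile 4 to 10, highest 23), and the other autosomal regions had 12 (9 to 15, highest 27). A member cannot have a neighbour in the nearest 500 kb, so a lower count is built into the rule. Even so, 128 members (25.7%) had 10 or more regions in that span, against 2773 of the others (68.3%). At the sparse end, 11 members had none. In fixed windows of 5 Mb, 46 members (9.24%) and 1366 others (33.7%) lay in windows with 15 or more regions, and 22 members were the single region of their window.

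**Figure D3:**
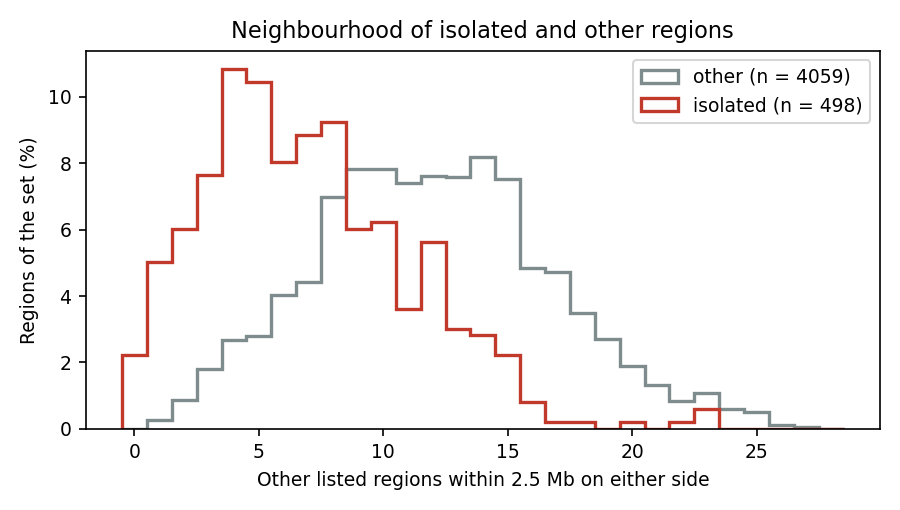
Number of other listed regions within 2.5 Mb on either side (x axis) and the percentage of each set (y axis), for isolated (red) and other (grey) autosomal regions. Isolated regions centre on 6 and others on 12, and the curves overlap, with 25.7% of isolated regions at 10 or more.

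All 19 autosomes held isolated regions, from 13 on chromosome 19 to 45 on chromosome 2. As a share of a chromosome's regions they ran from 6.8% on chromosome 9 (17 of 250, exact binomial 95% interval 4.01% to 10.7%) to 18.7% on chromosome 12 (32 of 171, 13.2% to 25.4%). Chromosome 18 had 15.3% (22 of 144), chromosome 14 15% (28 of 187) and chromosome 5 14% (41 of 292). Chromosome 11 had 7.31% (19 of 260). Sparse chromosomes yield more isolated regions by construction. Mean spacing was largest on chromosome 12 (690.0 kb), and 4 of the 5 chromosomes with the widest spacing were among the 5 with the highest share. Chromosome 5 had a high share at a spacing of 508.8 kb, while chromosome 7 had 10.9% at 584.7 kb and chromosome 16 9.41% at 558.3 kb. The intervals of these 3 chromosomes overlapped. Chromosome 19 was the densest, at 374.4 kb, and had 8.39% (13 of 155), close to the shares of chromosomes with wider spacing such as chromosome 15 (8.38%, 512.6 kb) and chromosome 10 (8.46%, 487.6 kb).

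**Figure D4:**
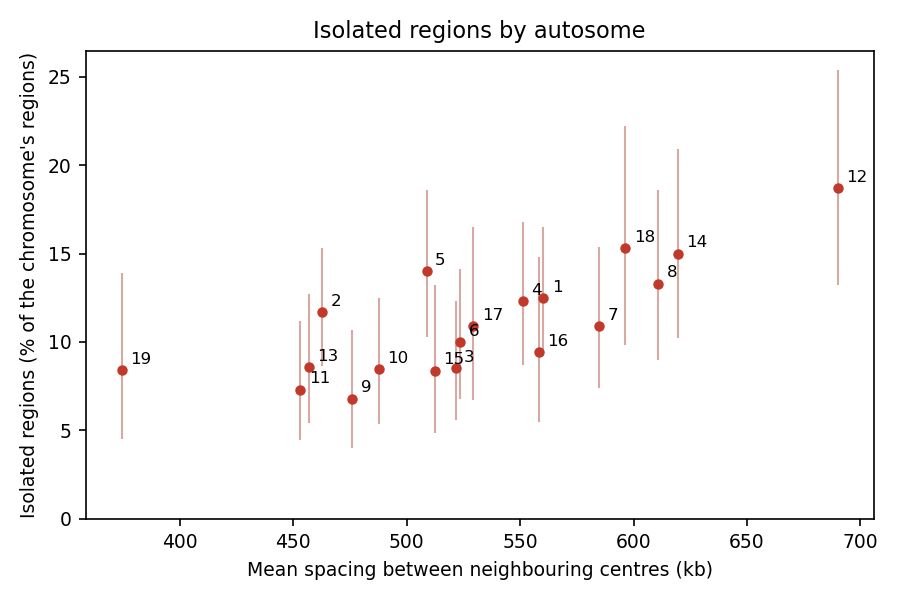
Mean spacing between neighbouring centres (x axis, kb) and isolated regions as a percentage of the chromosome's regions (y axis), 1 point per autosome labelled with its number, with exact binomial 95% intervals. Chromosome 12 is highest on both axes, and most intervals overlap.

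The isolated regions had a slightly lower median width than the others and a smaller share of wide regions. Their median width was 931 bp (95% order-statistic interval 912 to 958) against 965 bp (957 to 973) for the other autosomal regions and 962 bp for all. The difference of -34 bp had a 95% interval of -54.6 to -5.84 bp, obtained by combining the 2 intervals. This interval reached past 0 when the limit was 400000 bp (-48.9 to 0.203) or 750000 bp (-61.2 to 14.6) and when chromosome 5 was left out (-29 bp, -50.9 to 0.833). The mean was 952.8 bp ± 298.2 (SD over 498 regions) against 1016.6 bp ± 348.7 (SD over 4059 regions), so the shift was small beside the spread among regions. No p-value is given, because regions are not replicates of a condition and the intervals treat them as independent, which members of 1 run are not. All percentiles examined were lower in the isolated set. The 10th percentile was 660.7 bp against 701.8 bp, the 25th 791 against 833 bp, the 75th 1042.5 against 1106 bp and the 90th 1170.2 against 1312.4 bp. The gap was thus -142.2 bp at the 90th percentile and -41.1 bp at the 10th.

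Wide regions were fewer among the isolated. Of all autosomal regions, 9.87% measured at least 1300 bp. Among isolated regions 28 of 498 did (5.62%, exact binomial 95% interval 3.77% to 8.02%), and among the others 422 of 4059 did (10.4%, 9.47% to 11.4%). Widths over 2000 bp occurred in 2.50% of all autosomal regions, in 8 isolated regions (1.61%, 0.696% to 3.14%) and in 106 others (2.61%, 2.14% to 3.15%), where the intervals overlapped. Narrow regions were more frequent. Widths under 700 bp were found in 10.3% of all autosomal regions, 73 isolated regions (14.7%, 11.7% to 18.1%) and 395 others (9.73%, 8.84% to 10.7%).

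The median width did not step at the limit of the rule. By distance to the nearest centre, the median was 1002 bp (978 to 1034) at up to 12.5 kb and 975 bp (960 to 991) at 12.5 to 50 kb. It was 950 bp (938 to 975) at 50 to 100 kb, 961 bp (950 to 973) at 100 to 250 kb and 946 bp (929 to 968) at 250 to 500 kb. Within the isolated set it was 927.5 bp (907 to 961) at 500 to 750 kb, 938.5 bp (891 to 1012) at 750 kb to 1 Mb and 936 bp (889 to 974) beyond 1 Mb. Each of the 3 isolated intervals overlapped that of the class just below the limit. The share of regions of at least 1300 bp was 14.5% in the closest class, 7.9% (5.92% to 10.3%) at 250 to 500 kb, 5.88% (3.25% to 9.67%) at 500 to 750 kb, 8.18% (3.81% to 15%) at 750 kb to 1 Mb and 3.33% (1.09% to 7.61%) beyond 1 Mb. The share under 700 bp was 9.95% (7.73% to 12.6%) at 250 to 500 kb and between 7.44% and 11.1% in the closer classes. It was 15.5% (11.2% to 20.8%) at 500 to 750 kb, 9.09% (4.45% to 16.1%) at 750 kb to 1 Mb and 17.3% (11.6% to 24.4%) beyond 1 Mb. Whether this share steps at the limit was not tested. No member beyond 1 Mb was wider than 2000 bp, 0 of 150. This allows a share of up to 2.43% (upper end of the exact binomial 95% interval), above the 1.9% of regions at 250 to 500 kb.

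**Figure D5:**
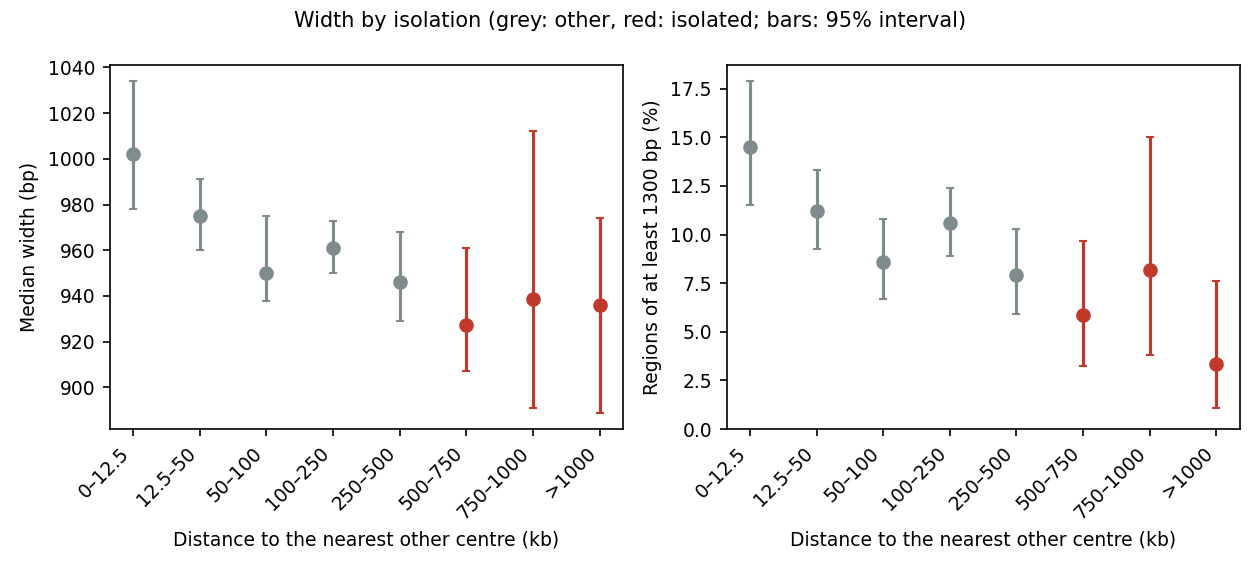
Median width in bp (left, y axis not starting at 0) and percentage of regions of at least 1300 bp (right) by distance to the nearest other centre in kb (x axis), for isolated (red) and other (grey) regions, with 95% order-statistic and exact binomial intervals. Both values are highest in the closest class, and the isolated classes continue the lower end of the others with overlapping intervals.

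Leaving the closely grouped regions out of the comparison narrowed the difference. Against the 3575 other regions with no centre within 12.5 kb, whose median was 960 bp, the difference was -29 bp (-50.5 to -1.11). Against the 1844 with none within 100 kb, with a median of 957 bp, it was -26 bp (-47.5 to 3.55), an interval that includes 0. The share of regions of at least 1300 bp stayed apart in that last comparison, at 9.65% (8.34% to 11.1%) against 5.62% (3.77% to 8.02%). The share under 700 bp did not, at 10.7% (9.31% to 12.2%) against 14.7% (11.7% to 18.1%) in the isolated set. Against the other regions with no centre within 12.5 kb (10%, 9.08% to 11.1%) it stayed apart. Medians were also split by local density. Isolated regions with 10 or more regions within 2.5 Mb had a median of 927 bp (902 to 956) and those with fewer had 938 bp (910 to 969), with overlapping intervals. Among the others the medians were 974 bp (964 to 982) with 10 or more and 944.5 bp (931 to 960) with fewer, with intervals that did not overlap. Whether the sets differ in this respect was not tested. With fewer than 10 regions, the median intervals of the isolated and other regions overlapped. There, regions of at least 1300 bp made up 6.49% (4.2% to 9.5%) of isolated and 8.4% (6.94% to 10%) of other regions, again overlapping. With 10 or more, the median intervals stood apart. So did those of the shares, at 3.12% (0.858% to 7.81%) and 11.3% (10.2% to 12.6%). By chromosome, the isolated median was below that of the other regions on 16 of 19 autosomes. Differences ran from -102.5 bp on chromosome 19 to 32.5 bp on chromosome 16. The share of regions of at least 1300 bp was lower in the isolated set on 16 of 19. Each autosome held only 13 to 45 isolated regions, so these shares rest on few wide ones. On chromosomes 7, 16, 17 and 19 the isolated share was 0%. Chromosomes 6, 8 and 16 had the higher isolated medians. The list holds no gap under 1003 bp between the edges of neighbouring autosomal regions, and the sources used here do not say whether close peaks had been joined into wider ones before deposit. The part of such joining in the width difference was not tested.

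A few isolated regions were wide all the same. The widest, chr2:115598195-115602204, measured 4010 bp, ranked as number 3 by width among all autosomal regions and stood 888.5 kb from its nearest neighbour, with 8 regions within 2.5 Mb on either side. The next were chr14:88828833-88831365 (2533 bp), which had 768.7 kb free on its left and 7.5 Mb on its right, and chr10:70577026-70579324 (2299 bp, nearest centre 581.0 kb away). Those of 2234 bp (chr11:59354438-59356671) and 2168 bp (chr18:40598932-40601099) stood 600.8 and 987.3 kb from their nearest neighbours. All 8 isolated regions over 2000 bp had their nearest neighbour within 1 Mb, and all 8 belonged to runs of 2 or more members. Both traits were common among all 498 members, of which 303 (60.8%) belonged to such runs and only 150 had no neighbour within 1 Mb. At the other end, the narrowest region of the whole autosomal list, chr12:10700546-10700771 at 226 bp, was isolated, with 1828.8 kb to its left and 1650.9 kb to its right (chosen after its value was seen). Together the 498 isolated regions covered 474.5 kb, which was 10.3% of the 4600.8 kb covered by all autosomal regions.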

How the data were processed

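The series held ChIP-seq libraries of PU.1, C/EBPα, LSD1 and input, and the authors deposited 1 list for the whole series. It gives a chromosome, a start and an end in base pairs per interval, with no signal, count or p-value. Per the submitters' processing notes, Bowtie2 2.2.2, bedtools and mm9 were used, with no role stated. The peak caller, threshold, contributing libraries and the criterion for dynamic were not given in the sources used here. There were 0 columns of values per sample, so library groups were not compared and no library could be left out. The libraries' depth is unknown.

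Starts are printed 1-based. Centres, distances and widths were computed in Python 3.11.15 with pandas 2.3.3, numpy 2.4.6 and scipy 1.17.1, and the scripts were tested on simulated data. Intervals are exact binomial for shares and order-statistic for medians, at 95%. They cover counting error only. Members, width limits and lists were chosen with earlier results of these data known. Regions named are the 10 most isolated, the 5 widest, those of the longest run and 3 on each side of the limit. Sequence and gene annotation, 2 planned results, need an mm9 genome and were not computed. A gene table on GRCm38.p6 was not used, as the builds differ.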

Additional observations from a re-analysis of the deposited data

How the results depend on the processing

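Of 146 values recomputed under 28 other settings, 137 stayed close to the reported value, 9 moved and 0 reversed. Close meant within its interval, or within 1.5 times for counts and for the highest share by chromosome. Only the width difference could be labelled reversed, by a change of sign. Of the settings, 19 left out 1 autosome each and so kept most regions. The 2 settings that trimmed only the comparison set could not change the values of the isolated set. The number of isolated regions was 655 at a limit of 400000 bp, moved to 260 at 750000 bp, and was 497 with gaps between edges, 484 without the first and last regions of each chromosome, 515 with regions within 12.5 kb joined and 453 to 485 with an autosome left out. The percentage of members with another member beside them moved to 67.6% at 400000 bp and 46.9% at 750000 bp. The highest share by chromosome was 23.6% (chromosome 18) at 400000 bp and moved to 11.1% (chromosome 12) at 750000 bp. The lowest share, 6.8% on chromosome 9 in the report, was then 9.73% (chromosome 13) and 2.58% (chromosome 19), so which chromosome is lowest depends on the limit. The width difference lay between -37.5 and -26 bp in all settings, including those 2 comparison sets that were chosen after seeing the data. Its interval included 0 at 400000 bp (-48.9 to 0.203), at 750000 bp (-61.2 to 14.6), without chromosome 5 (-29 bp, -50.9 to 0.833) and without other regions that had a centre within 100 kb. With regions within 12.5 kb joined, the share of isolated regions of at least 1300 bp moved to 8.74%, against 14.8% of the others. Joining widens intervals by construction, but no member of the reported set has a centre within 12.5 kb. The isolated share thus moved through a change of membership, to 515 regions. No paired analysis was possible because the 6 groups have 1 library each and the 1 list holds no library values. The settings planned for sequence and annotation were not run.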

Other observations

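Chromosome X, which the rule leaves out, held 34 regions beyond the same limit among its 112 (30.4%), above the share on each of the 19 autosomes (18.7% at most). Mean spacing on X was 1429.5 kb, against 690.0 kb at most on the autosomes, which raises this share by construction. With X included the isolated set had 532 regions, a median width of 934.5 bp (914 to 962) and a width difference of -30.5 bp (-52.5 to -1.86).

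Isolated regions with no member beside them and those in runs of 2 or more had nearly the same median width. It was 928 bp (910 to 972) for the 195 regions of the first set and 934 bp (902 to 967) for the 303 of the second. Regions of at least 1300 bp made up 3.59% (1.46% to 7.26%) of the first set and 6.93% (4.34% to 10.4%) of the second, with overlapping intervals. Regions over 2000 bp numbered 0 of 195, which allows a share of up to 1.87% (upper end of the exact binomial 95% interval), and 8 of 303 (2.64%, 1.15% to 5.14%), where the intervals also overlapped. This split was chosen after the data were seen, and the difference was not tested.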
